A study of Mus musculus with 2 samples.

Results

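Replication-dependent histone genes were compared between parental mouse embryonic stem cells (ESCs) and cells carrying a Sox2 mutation. The genes were taken as every row of the deposited mm10 gene table whose symbol starts with Hist1h, Hist2h, Hist3h or Hist4h. The rule found 69 of 24532 genes, namely 6 genes of the linker histone H1, 19 of H2A, 19 of H2B, 12 of H3 and 13 of H4. RefSeq lists 2 of them, Hist1h2al and Hist3h2bb-ps, as transcribed pseudogenes. E14 is an established mouse ESC line, here with both Sox2 alleles wild type and grown with serum and leukemia inhibitory factor (LIF). E14-Sox2 TA/WT cells (genotype Sox2 T258A, called mutant cells from here on) are a clone of E14 in which CRISPR/Cas9 editing changed a threonine of 1 allele of Sox2 to alanine. This threonine of the pluripotency factor can carry the sugar O-GlcNAc, and alanine cannot. The clone was isolated in 2i (the Mek inhibitor PD0325901 and the Gsk3 inhibitor CHIR99021), which was withdrawn before use. Genotype, clonal isolation and culture history cannot be told apart. Each genotype had 1 library of polyadenylated RNA, and counted reads came to 60263536 for E14 and 44609228 for mutant cells. No difference has a replicate check, so no p-value is given, and every 95% interval covers the counting of reads alone.

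Replication-dependent histone genes supply the core histones H2A, H2B, H3 and H4 and the linker histone H1 that package newly made DNA during S phase. Their canonical mRNAs do not end in a poly(A) tail but in a short stem-loop, which is bound by Slbp and set by a dedicated cleavage machinery. Some of these genes also give polyadenylated transcripts when a poly(A) signal past the stem-loop is used, so values from polyadenylated RNA are not levels of total histone mRNA. Fewer cells in S phase and less RNA per cell cannot be told apart in bulk RNA.

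The 3′ ends are shown first, because a library of polyadenylated RNA selects for a poly(A) tail. RNAs that end without a canonical tail also had reads in these libraries (described below). Whether histone reads came from mRNAs with or without a tail was not tested. A stem of 6 base pairs with the letters GGNNNNTTTNNNNNCC was found on the sense strand of at least 1 GENCODE M21 transcript for 44 of the 69 genes, against 68 of 21901 protein-coding genes (0.310%). The stem-loops of 5 genes are printed 5′ to 3′ with the 16 bases of the stem-loop in capitals and 5 bases on each side, on GRCm38. They lie in the 3′ UTR at chr13:23739512-23739527 (Hist1h1c, plus strand), chr13:23752820-23752835 (Hist1h3b, plus), chr13:23581950-23581965 (Hist1h4d, plus), chr13:22040966-22040981 (Hist1h4i, minus) and chr3:96262939-96262954 (Hist2h4, minus).
Hist1h1c: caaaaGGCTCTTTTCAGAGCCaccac
Hist1h3b: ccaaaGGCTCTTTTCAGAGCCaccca
Hist1h4d: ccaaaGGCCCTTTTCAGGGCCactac
Hist1h4i: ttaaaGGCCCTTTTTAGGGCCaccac
Hist2h4: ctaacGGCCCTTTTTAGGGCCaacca

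A poly(A) signal hexamer (AATAAA or ATTAAA, sense strand) stood in the last 50 bases of a GENCODE M21 transcript for 17 of the 69 genes (24.6%), against 77.9% of protein-coding genes. A match describes the letters of the annotated end and is not evidence of cleavage there. Absence of a hexamer or stem-loop can reflect a short annotation. The GENCODE transcripts of Hist1h2ai (393 bases, 390 of them coding) and Hist1h3h (411 bases, 408 coding), for example, hold almost nothing past the coding sequence. The ends of 4 of these genes are shown, with the hexamer in capitals, for the H1 and H4 genes with the highest levels, the H2A gene with the highest level, and the H4 gene with the lowest ratio. They lie at chr13:23740342-23740347 (Hist1h1c, plus strand), chr13:22040651-22040656 (Hist1h4i, minus), chr11:58956797-58956802 (Hist3h2a, plus) and chr6:136801556-136801561 (Hist4h4, minus).
Hist1h1c: gcttctAATAAAaagcgtttagttttcatt
Hist1h4i: gtttacATTAAAagtattctatgctaa
Hist3h2a: atgcccAATAAAataagagtacgtgtataa
Hist4h4: agatgaAATAAAtac

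Histone genes were at low levels in both libraries. Reads were found for 68 of the 69 genes, and 6 genes had fewer than 10 reads in the libraries together. The median level was 2.64 TPM (a level per transcript length, scaled to the library) in E14 and 1.98 TPM in mutant cells. Only Hist1h1c, Hist1h2bc, Hist1h4i and Hist3h2a reached 10 TPM in at least 1 library, whereas 52 genes peaked between 1 and 10 TPM and 13 stayed under 1 TPM. These 4 genes took 21.5% of all histone reads in E14 and 38.5% in mutant cells. Hist1h1c reached 10 TPM only in mutant cells (142 reads in E14 and 324 in mutant cells), so the choice of genes itself favours a larger share there.

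The summed level of the 69 genes was almost the same in both genotypes. It was 243.6 TPM (4216 reads) in E14 and 241.4 TPM (3042 reads) in mutant cells, a log2 ratio (mutant over E14) of −0.01 with an interval from −0.08 to 0.05. Its sign turned with scaling of the counts, to 0.06 by TMM. The classes did not move together: the summed level was higher in mutant cells for H1 and H2B, lower for H3 and H2A, and near equal for H4. Single genes were more often lower than higher, with 40 lower and 21 higher among those with at least 10 reads and a TPM above 0 in at least 1 library. Over the 54 genes with a mean of at least 1 TPM, the median log2((TPM + 0.1) ratio) was −0.23, with 35 genes lower (64.8%). Over all 13269 genes of the table at that level the median was 0.04, and 46.8% of genes were lower.

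**Figure D1:**
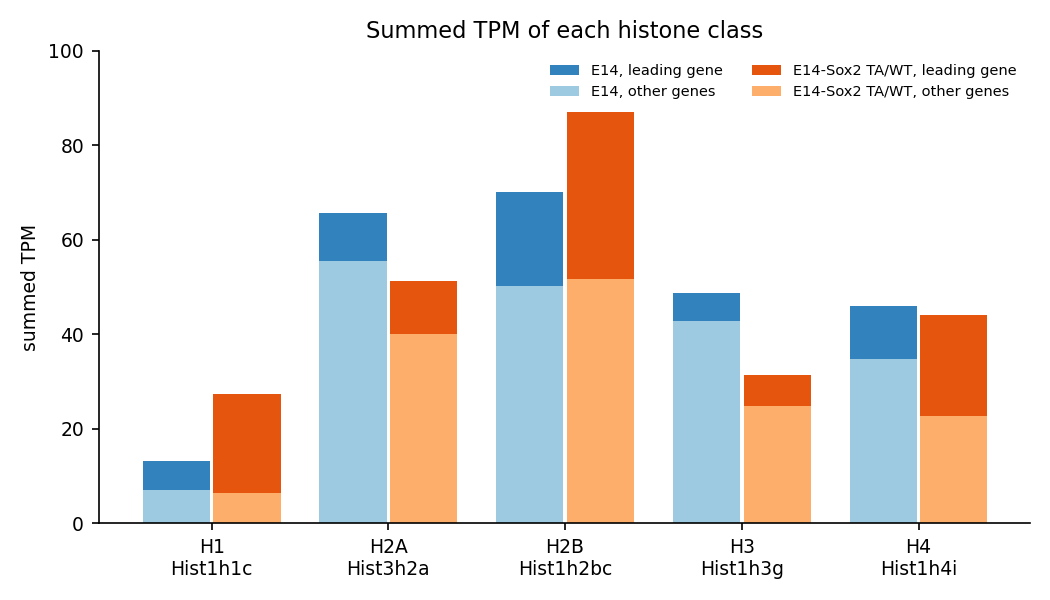
Summed TPM (y axis, from 0) of each histone class in E14 (blue) and mutant cells (orange), 1 library each, with the dark part of each bar for the gene named under it, which had the highest mean TPM of its class. All 5 leading genes, chosen with the values of both libraries, made up a larger part of their class in mutant cells. The H3 gene highest in E14 was not the leading gene but Hist1h3b, at 7.23 TPM in E14 and 2.53 TPM in mutant cells. The sum of the other H1, H2A, H3 and H4 genes was lower in mutant cells than in E14.

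At the threshold of the study, 10 TPM or more in either library and a difference over 2-fold, Hist1h1c was higher and none of the 4 histone genes was lower. Hist1h1c passed the filter through mutant cells alone, so its place among the 4 and its call as higher are not independent. Of the 9094 genes past that filter, 4.17% were higher and 4.07% lower. With the filter at 1 TPM, 4 of 56 histone genes, among them the pseudogene Hist1h2al, were more than 2-fold higher (7.14%), near the 6.45% of all genes, and 13 were more than 2-fold lower (23.2%) against 9.95% of all genes. Genes at low levels pass 2-fold more easily, so the 52 histone genes that peaked between 1 and 10 TPM were set against all 4635 genes in that band. The band is matched on TPM and not on reads, and histone genes are short. There 3 were higher (5.77%, against 10.9% of all genes) and 13 were lower (25.0%, against 21.5%), a share near that of genes at like levels. Counting intervals lay wholly above no change for 4 of the 52 genes (7.69%, against 29.5% of all genes) and wholly below for 17 (32.7%, against 42.4%). These interval shares depend on reads, which were not matched. For example, in E14 Hist1h3b had 106 reads at 7.23 TPM, whereas Lsm11, a gene outside the histones in that band, had 1014 reads at 4.99 TPM. The 13 lower genes were 5 of the 11 H3, 5 of the 10 H4 and 3 of the 13 H2A genes in the band. None of the 14 H2B or 4 H1 genes there was among them. The 5 H3 genes belong to the same group of near-identical copies (described below). The 3 H2A genes likewise share a group, so neither set gives separate results.

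**Figure D2:**
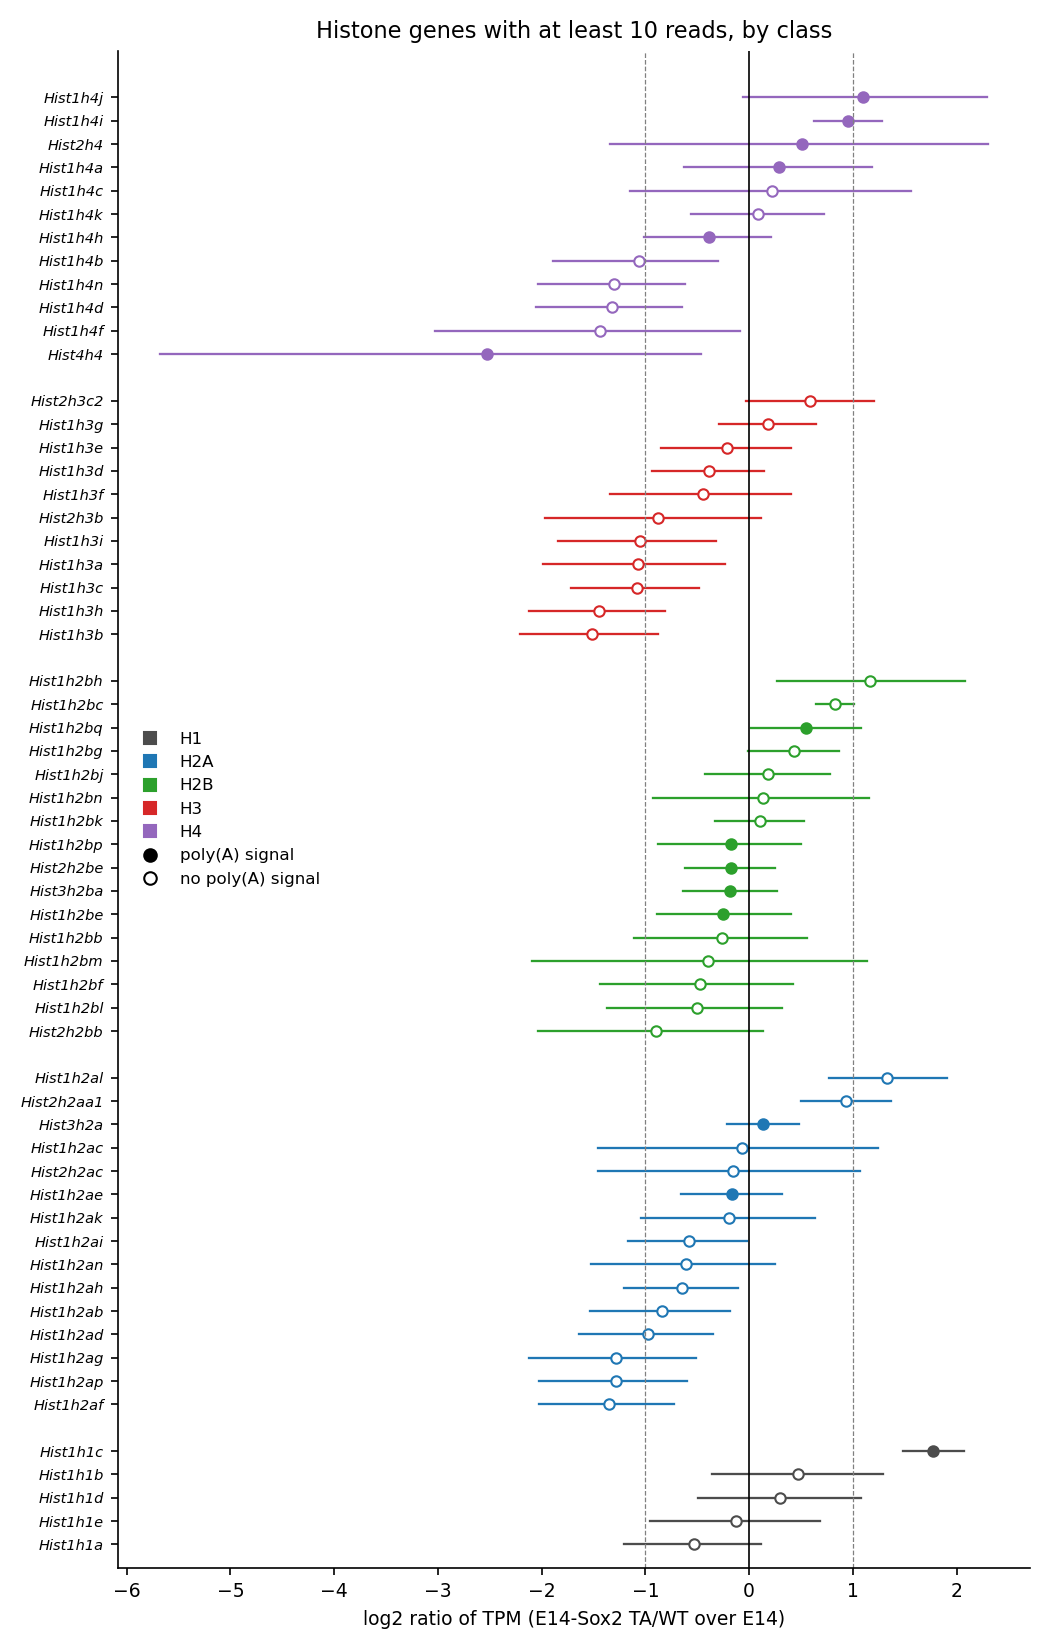
log2 ratio of TPM (x axis, mutant over E14) of each histone gene with at least 10 reads in the libraries together and a TPM above 0 in both, grouped by class, with lines for 95% counting intervals and dashed lines at a 2-fold difference. Filled points have a poly(A) signal hexamer in the last 50 bases of an annotated transcript. Hist1h1c lies farthest to the right, and H3 and H2A genes lie mostly to the left of 0.

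Histone H1 binds the linker DNA between nucleosomes. Hist1h1c, which encodes a somatic H1 subtype, had 142 reads (6.19 TPM) in E14 and 324 reads (21.1 TPM) in mutant cells. It was 3.41-fold higher there, with a log2 ratio of 1.77 (1.48 to 2.07), the highest among histone genes with at least 50 reads. Hist1h1a, another somatic subtype and the H1 gene next in reads, had 64 reads (2.69 TPM) in E14 and 30 reads (1.87 TPM) in mutant cells, and its interval of −1.21 to 0.12 included no change. The intervals of Hist1h1b, Hist1h1d and Hist1h1e, the other somatic genes, also included no change, with log2 ratios of 0.47, 0.30 and −0.12. Hist1h1t, the testis-specific linker histone, had 13 reads in E14 and 0 in mutant cells, at least 3.21-fold lower in reads scaled to library totals (CPM) against a floor of 3 reads. The summed H1 level was 13.2 TPM in E14 and 27.4 TPM in mutant cells, a log2 ratio of 1.05 (0.84 to 1.27). Without Hist1h1c the other 5 genes summed to 7.04 and 6.30 TPM, a log2 ratio of −0.16 (−0.52 to 0.20). The difference of the class therefore rested on Hist1h1c, whose part of the H1 sum was 46.8% in E14 and 77.1% in mutant cells.

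H2A pairs with H2B in the nucleosome. The H2A sum was 65.7 TPM (1137 reads) in E14 and 51.3 TPM (690 reads) in mutant cells, a log2 ratio of −0.36 (−0.50 to −0.22). Hist3h2a, the H2A gene with the most reads, had 164 reads (10.2 TPM) and 121 reads (11.3 TPM) in E14 and mutant cells, and its log2 ratio of 0.14 (−0.21 to 0.48) included no change. Hist2h2aa1 was next in reads and went the other way from its class, with 83 reads (4.70 TPM) in E14 and 106 reads (8.97 TPM) in mutant cells, a log2 ratio of 0.93 (0.50 to 1.36). Its whole coding sequence is shared with Hist2h2aa2, which had 56 and 66 reads but was listed at TPM 0 in both libraries. The clustered H2A genes of the Hist1 locus were mostly lower. Hist1h2af, named here after its values were seen, had 102 reads (6.90 TPM) in E14 and 27 reads (2.70 TPM) in mutant cells, a log2 ratio of −1.35 (−2.02 to −0.73). Hist1h2ag and Hist1h2ap, also named from their values, had log2 ratios of −1.28 and −1.29. Because reads can be split among near-identical copies, genes were linked where a pair shared at least 50% of the 50-base coding windows of the shorter gene, and each linked group was summed. The largest H2A group held 11 Hist1 genes and left out Hist1h2aa, Hist1h2ak and Hist1h2al. Together they had 735 reads (46.9 TPM) in E14 and 291 reads (27.0 TPM) in mutant cells, a log2 ratio of −0.80 (−0.9997 to −0.60). Hist1h2aa, a testis-specific H2A gene, had 4 reads in E14 and 0 in mutant cells, too few for a fold.

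H2B was the class with the highest summed level in both libraries. It summed to 70.2 TPM (1354 reads) in E14 and 87.1 TPM (1153 reads) in mutant cells, a log2 ratio of 0.31 (0.20 to 0.43). Hist1h2bc had the most reads of all 69 genes, with 457 reads (19.99 TPM) in E14 and 544 reads (35.5 TPM) in mutant cells, a log2 ratio of 0.83 (0.64 to 1.01). Without Hist1h2bc the other 18 genes summed to 50.2 and 51.7 TPM, a log2 ratio of 0.04 (−0.11 to 0.19), so the class difference rested on this gene. Hist2h2be, second in reads, had 123 reads (1.46 TPM) in E14 and 73 reads (1.29 TPM) in mutant cells, and its interval of −0.62 to 0.25 included no change. Counting intervals of 3 H2B genes lay above no change, those of Hist1h2bc, Hist1h2bh (19 and 28 reads) and Hist1h2bq (65 and 60 reads), and among H2B genes with a TPM above 0 in both libraries none lay below. Between 1 and 10 TPM this made 2 of 14 H2B genes above (14.3%), under the 29.5% of all genes, which were not matched on reads. Hist1h2br had 55 reads in E14 and 0 in mutant cells, but all of its coding windows are shared with other genes, among them copies of the group that holds Hist1h2bq. The split of these reads is uncertain, and so is the place of Hist1h2bq above no change. Read counts and TPM disagreed for Hist1h2be, which had 37 and 51 reads but 2.38 and 1.996 TPM, the largest departure of all 59 genes for which both ratios could be set side by side.

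H2A and H2B genes often lie head to head and start from 1 shared stretch of promoter. The RefSeq starts of 13 such pairs were at most 600 bases apart, and 9 pairs had at least 10 reads and a TPM ratio for both genes. The H2B gene had the higher log2 ratio in 8 of these 9 pairs, with a median difference (H2B minus H2A) of 0.50. The median log2 ratio was −0.58 for the H2A genes and 0.11 for the H2B genes of the pairs. Hist1h2ag had 65 and 18 reads in E14 and mutant cells while its partner Hist1h2bj had 56 and 43, the widest gap (1.47 on the log2 scale). Their counting intervals, −2.13 to −0.51 and −0.43 to 0.78, did not overlap. In every other pair the intervals of both genes overlapped, so most of these gaps are not resolved by the reads. Hist2h2ac and Hist2h2be were the exception, at −0.16 and −0.18. Pairs are not replicates, and most of these genes share coding sequence with copies in other pairs.

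**Figure D3:**
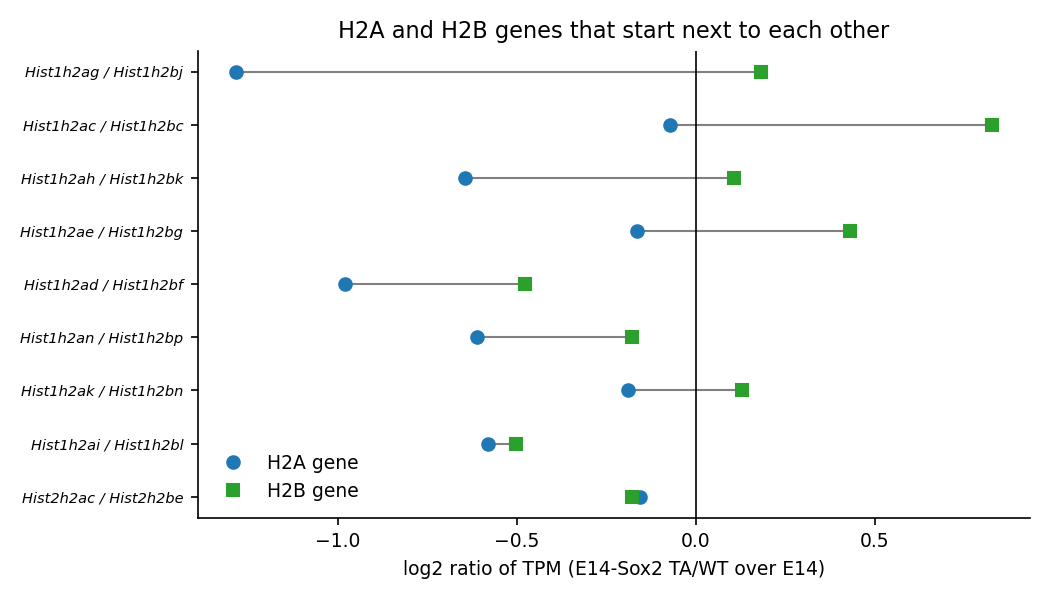
log2 ratio of TPM (x axis, mutant over E14) of the H2A gene (blue circle) and the H2B gene (green square) in each of the 9 head-to-head pairs with at least 10 reads for both genes. The square lies to the right of the circle in 8 pairs, with the widest gap for Hist1h2ag and Hist1h2bj. Counting intervals are not drawn, and they overlap within every other pair.

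The promoter between Hist1h2ac and Hist1h2bc is shown as an example of such a shared stretch, because Hist1h2bc led all histone genes in reads while Hist1h2ac had 14 and 9. The starts of these genes are 240 bases apart, and the 150 bases before the Hist1h2ac start (RefSeq, GRCm38.p6, chr13:23683960-23684109, minus strand) are printed 5′ to 3′. Capitals mark the octamer ATTTGCAT, a site of POU-domain factors such as Oct1 and Oct4, the CCAAT box and the TATA box TATAAA, each on either strand.
Hist1h2ac: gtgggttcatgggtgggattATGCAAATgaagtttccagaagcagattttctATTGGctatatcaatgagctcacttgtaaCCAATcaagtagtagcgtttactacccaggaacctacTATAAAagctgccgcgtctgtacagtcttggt

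Promoter letters differed by class. RefSeq windows from 250 bases before to 50 after the start were found for 62 of the 69 genes and searched on both strands. CCAAT was present in all windows of H1, H2A, H2B and H3 genes but in 3 of 12 H4 windows, against 37.9% of all promoters. TATAAA was present in 35 of 62 windows (56.5%, all promoters 14.2%). ATTTGCAT was present in 7 of 18 H2A and 6 of 16 H2B windows and in none of H1, H3 or H4, against 1.75% of all promoters. H2A genes with the octamer had a median log2 ratio of −0.16 (5 genes with a mean of at least 1 TPM) and those without it −0.77 (8 genes). For H2B the medians were −0.07 (4 genes) and −0.17 (9 genes). Hist1h2bc and Hist2h2be, the H2B genes with the most reads, had no window and are in neither group. This split was made after the values were seen, and these matches are letters in a window, not measured binding.

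H3 carries many of the histone modifications that mark promoters and silent chromatin. Its sum was 48.6 TPM (823 reads) in E14 and 31.4 TPM (387 reads) in mutant cells, a log2 ratio of −0.63 (−0.81 to −0.46), and it was lower under every scaling tried. Hist1h3b had the lowest ratio of all histone genes with at least 50 reads and a TPM above 0 in both libraries, with 106 reads (7.23 TPM) in E14 and 25 reads (2.53 TPM) in mutant cells, a log2 ratio of −1.52 (−2.21 to −0.88). Hist1h3g and Hist1h3d had the most reads of the class. Hist1h3g had 91 reads (5.87 TPM) and 69 reads (6.64 TPM), a log2 ratio of 0.18 (−0.29 to 0.65). Hist1h3d had 89 reads (5.60 TPM) and 46 reads (4.28 TPM), a log2 ratio of −0.39 (−0.93 to 0.14). The 9 Hist1 H3 genes formed 1 group of linked copies, and their summed log2 ratio was −0.72 (−0.93 to −0.52). Outside the Hist1 locus, Hist2h3b, Hist2h3c1 and Hist2h3c2, which also share sequence, had 126 reads in E14 and 99 in mutant cells, and the log2 ratio of their summed TPM was 0.07 (−0.32 to 0.46). Hist2h3c1 had 46 and 40 of these reads but was listed at TPM 0 in both libraries.

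H4 forms the core of the nucleosome with H3, and its genes split in both directions. The H4 sum was 45.9 TPM (586 reads) in E14 and 44.1 TPM (383 reads) in mutant cells, a log2 ratio of −0.06 (−0.25 to 0.13). Hist1h4i had 142 reads (11.1 TPM) in E14 and 183 reads (21.5 TPM) in mutant cells, a log2 ratio of 0.95 (0.63 to 1.28). It made up 24.2% of the H4 sum in E14 and 48.7% in mutant cells, and the other 12 genes together had a log2 ratio of −0.62 (−0.87 to −0.38). Hist1h4d and Hist1h4h were tied for second in reads. Hist1h4d had 84 reads (7.17 TPM) in E14 and 23 reads (2.86 TPM) in mutant cells, a log2 ratio of −1.33 (−2.06 to −0.65). Hist1h4h had 71 reads (5.13 TPM) and 36 reads (3.92 TPM), and its interval of −1.01 to 0.21 included no change. Hist1h4n, named from its values, was like Hist1h4d, with 82 and 23 reads and a log2 ratio of −1.30. Hist4h4, the single H4 gene on chromosome 6, had 18 and 2 reads and a log2 ratio of −2.53 with a wide interval (−5.68 to −0.47).

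The H4 genes carried 3 different stem-loops where one was found. The 7 H4 genes with the stem-loop of Hist1h4d had 289 reads in E14 and 100 in mutant cells, and the 5 of them with a mean of at least 1 TPM had a median log2 ratio of −1.27. The stem-loop of Hist1h4i was also found in Hist2h4, and this pair had 149 and 189 reads, of which Hist2h4 gave 7 and 6. The third stem-loop (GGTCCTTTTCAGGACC) was that of Hist1h4j and Hist1h4b, with 71 and 36 reads together and log2 ratios of 1.09 and −1.06. Hist1h4j had only 12 and 17 of these reads, and its interval of −0.06 to 2.29 included no change. The interval of Hist1h4b was −1.89 to −0.30. The stem-loop of Hist1h1c and Hist1h3b was common to 26 genes of H1, H2A, H2B and H3, with a median log2 ratio of −0.17, so genes with 1 and the same stem-loop lay at both ends of the range.

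Genes with an annotated poly(A) signal were set against the rest, a grouping added after the values were seen. The 17 genes with the signal summed to 62.6 TPM in E14 and 86.7 TPM in mutant cells, a log2 ratio of 0.47 (0.35 to 0.59). The 52 genes without it summed to 181.0 and 154.7 TPM, a log2 ratio of −0.23 (−0.31 to −0.14). This group also holds genes whose annotated transcript stops at the end of the coding sequence, where no signal could be found. The higher sum rested on Hist1h1c and Hist1h4i. Without them the other 15 genes with the signal summed to 45.3 and 44.0 TPM, a log2 ratio of −0.04. Medians were −0.01 over 12 genes with the signal and −0.47 over 42 genes without it. Among H4 genes the log2 ratio of the sum was 0.56 (0.31 to 0.81) for the 6 with the signal and −0.87 (−1.19 to −0.56) for the 7 without it, and it was −0.10 for the 5 with the signal other than Hist1h4i. H2B went the other way, at −0.04 (−0.26 to 0.18) for 6 genes with the signal and 0.43 (0.29 to 0.56) for 13 without it, a group that holds Hist1h2bc. Among genes with at least 10 reads and a RefSeq span under 2000 bases, the model length implied by reads and FPKM was within 1.3 times of that span for 55 of 56. Genes with longer spans, among them Hist1h2bc, Hist2h2be and Hist1h2br, were outside this comparison. The RefSeq spans of Hist1h1c, Hist1h4i, Hist3h2a and Hist4h4 stop before the poly(A) signals printed above. That of Hist1h1c, for example, ends at chr13:23739531. The TPM of these genes is therefore not a level of transcripts that end at the signal.

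Base composition moved with these ratios. Histone coding sequences are rich in G and C, with a median GC content of 65.7% against 53.3% over all genes. Genes of the table with like coding GC and length had log2 ratios shifted by a median of −0.28. By class the median shift was −0.28 for H2A, H2B, H3 and H4. It was −0.40 for H1, which had the lowest median GC content of the 5 classes (59.6%). With that trend removed, the median of the histone genes turned from −0.23 to 0.05. The class medians became 0.68 for H1, −0.30 for H2A, 0.16 for H2B, −0.55 for H3 and 0.13 for H4, so H3 and H2A stayed below the trend. Genes with the poly(A) signal had a median of 0.29 and those without it −0.16. The part of base composition and length in the values above was not tested further.

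Reads of histone genes are also uncertain because of copies. Of 67 genes with a coding sequence in GENCODE M21, 53 share at least 50% of their 50-base coding windows with another gene, and 5 share none. Neither strand handling nor the treatment of reads with several alignments is given in the sources used here. Hist1h1c shared 21.98% of its windows, whereas Hist1h2bc shared 97.6%, Hist1h4i 71.2% and Hist3h2a all of them. Summed over near-identical copies, the 13 genes of the Hist1h2bc group had a log2 ratio of 0.41 (0.28 to 0.53).

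Lists of genes that act on or beside the histone genes had medians above 0. Over all genes the median was 0.04 at a mean of at least 1 TPM and 0.08 past 10 TPM. Of 24 factors of histone mRNA transcription, 3′ end formation and decay, with a median of 0.27, 23 reached 10 TPM, of which 1 was more than 2-fold higher and none lower, near the share of all genes past that filter (4.17% and 4.07%). Slbp, the stem-loop binding protein, was at 100.5 TPM in E14 and 137.7 TPM in mutant cells, a log2 ratio of 0.46. Npat, the coactivator of histone gene transcription at the histone locus body, had a log2 ratio of 0.46, and Casp8ap2, another histone locus body protein, 0.43. Lsm11, a subunit of the U7 snRNP that guides cleavage after the stem-loop, was at 4.99 and 5.65 TPM (0.18), and Zfp473, which takes part in the same cleavage, had a log2 ratio of 0.45. Srrt, of the cap-binding pathway, was the highest of the list (1.004) and Lsm10, the partner of Lsm11, the lowest (−0.58). S-phase genes had a median of 0.29 over 30 genes, with 3 of 30 more than 2-fold higher and none lower, against the same shares of all genes. Pcna, the sliding clamp of DNA replication, had a log2 ratio of 0.63. Ccne1 and Ccne2, the E-type cyclins whose kinase acts on Npat, had log2 ratios of 0.61 and 1.28. E2f3, an E2F transcription factor, was the highest of that list (1.29) and Cdc45, of the replicative helicase, the lowest (−0.41). Of 20 histone chaperone genes, with a median of 0.36, Atrx was highest (1.19) and Hjurp lowest (−1.02), each past 2-fold.

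**Figure D4:**
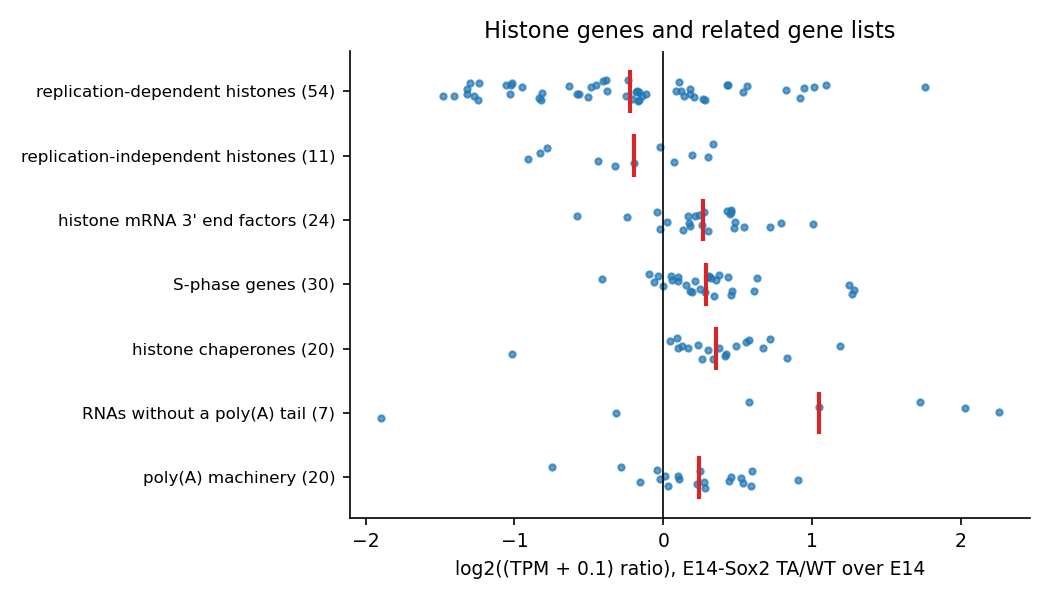
log2((TPM + 0.1) ratio) (x axis, mutant over E14) of genes with a mean of at least 1 TPM in each list, with the number of genes in parentheses, 1 point per gene and a red bar at the median. The replication-dependent histone genes spread on both sides of 0 with a median of −0.23, as against 0.27 for the 3′ end factors and 0.29 for S-phase genes. The histone median turned to 0.05 once the trend on GC content and length was removed, which was not done for the lists.

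Genes of variant and replacement histones, most of whose mRNAs are polyadenylated and not tied to S phase, were at far higher levels in these libraries. Their sum was 4013 TPM in E14 and 4047 TPM in mutant cells, and none of the 11 past 10 TPM differed more than 2-fold. H2afx, which also makes a stem-loop mRNA like the replication-dependent genes, had a log2 ratio of −0.02. The variant gene H2afz had a log2 ratio of 0.30, H3f3a and H3f3b, which encode the replacement histone H3.3, −0.20 and 0.33, and the linker gene H1f0 0.07. H2afy, which encodes macroH2A, was the lowest (−0.91). The median of this list was −0.20 over 11 genes, close to that of the replication-dependent genes, but with a narrower range. The ranges are not matched on reads or number of genes. In E14 the list had 171528 reads, against 4216 for the replication-dependent genes, of which 54 entered their median.

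Other RNAs that end without a canonical poly(A) tail, at least in part, were set beside the histone genes. Of 7 such RNAs with a mean of at least 1 TPM, 5 were higher in mutant cells and 2 lower, with a median of 1.04. Most reads of the list came from Malat1 (25328 and 25296 reads, log2 ratio 0.58) and Neat1 (2856 and 6303 reads, 1.72), both higher, and the short form of Neat1 is polyadenylated. Rpph1, the RNA of RNase P, had 151 and 209 reads (log2 ratio 1.05), and Rmrp, that of RNase MRP, had 47 and 9 (−1.97). Rnu73b, the highest, had 1 and 3 reads. The ribosomal RNA precursor Rn45s, added after the values were seen, had 229896 reads in E14 and 86480 in mutant cells (−0.83), whereas small nucleolar RNA genes summed to a log2 ratio of 0.41. The part of such RNAs in the histone values was not tested. Poly(A) machinery genes had a median of 0.24 over 20 genes, with Papd7 highest (0.91), Pabpc1, the cytoplasmic poly(A)-binding protein, lowest (−0.75) and none past 2-fold.

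Both libraries held the RNA of ESCs. All 6 ESC marker genes were above 251 TPM in both libraries, though their sum was 10581 TPM in E14 and 7884 TPM in mutant cells, and Nanog, at 526.9 and 251.3 TPM, was more than 2-fold lower. Dppa5a had a log2 ratio of −0.63, and Sox2 was at 372.5 TPM in E14 and 274.2 TPM in mutant cells (−0.44). The 4 primitive endoderm markers were all lower in mutant cells, from 34.2 to 8.72 TPM in sum. Of 6 fibroblast markers, Postn and Dcn were at 0 reads in both libraries, and Thy1 was at 40.1 TPM in E14 and 11.4 TPM in mutant cells. The 3 collagen genes of that list were higher in mutant cells, with 15 and 151 reads for Col3a1, 43 and 109 reads for Col1a2, and 2.66 and 2.95 TPM for Col1a1, so the sums of the list, 43.1 and 16.6 TPM, mostly followed Thy1. Of 4 neural markers, Neurod1 (8.89 and 21.4 TPM) and Map2 (2.65 and 5.07 TPM) were higher in mutant cells, Tubb3 was at 77.3 and 65.8 TPM, and Dcx had 0 and 3 reads. The part of these cell types in the histone values was not tested.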

How the data were processed

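Polyadenylated RNA was sequenced on an Illumina instrument, with 1 library of E14 and 1 of E14-Sox2 TA/WT cells (mutant cells). Submitters' processing notes name bcl2fastq 2.20.0, Trimmomatic, HISAT2 2.1.0 and StringTie 2.1.3b without roles, and build mm10. The authors deposited whole-number read counts per gene, FPKM and TPM values in 1 table, and all value columns were used. For 4 histone genes (Hist2h3c1, Hist1h2ap, Hist2h2aa2 and Hist1h2br) the deposited TPM departed by over 1% from its constant ratio to FPKM.

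TPM ratios were taken without a pseudocount, and medians of log2((TPM + 0.1) ratio) over genes with a mean of at least 1 TPM. The 95% intervals are exact Clopper-Pearson intervals of the read counts placed on the TPM scale (scipy 1.17.1). They and the floor of 3 reads (0.0498 CPM in E14, 0.0673 in mutant cells) cover counting error only, since PCR copies are not independent molecules. The interval script was tested on simulated data. Transcripts came from GENCODE M21 (GRCm38) and promoters from RefSeq (GRCm38.p6), matched by Entrez ID. Genes named were those with at least 10 TPM, the 2 with the most reads in each class, the lowest and highest ratios among genes with at least 50 reads, fixed regulators and list extremes, and others are said to be chosen from their values. Members, lists and groupings were chosen with earlier results of these data known. Alternatives used edgeR 4.0.16 (TMM) and DESeq2 1.42.0 (size factors) for scaling only.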

Additional observations from a re-analysis of the deposited data

How the results depend on the processing

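No paired analysis was possible because each genotype had 1 library and the result comes from no test. Of all settings tried, the count of genes more than 2-fold higher (1) became 4 with a filter of 1 TPM or of at least 10 reads, and 3 at 1.5-fold or after removal of the trend on GC content and length. The count of genes more than 2-fold lower (0) became 13 at 1 TPM, 7 at 5 TPM and 15 with at least 10 reads. The median log2 ratio (−0.23) turned to 0.88 over genes with a mean of at least 10 TPM, which are only Hist1h1c, Hist1h2bc, Hist1h4i and Hist3h2a. It turned to 0.048 once the trend was removed, and moved to −0.35 in FPKM, −0.34 in CPM and −0.31 when centred on all genes.

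The log2 ratio of the sum of all 69 genes (−0.01) turned to 0.062 by TMM and 0.082 by size factors, and moved to −0.14 in FPKM, −0.10 when centred and −0.12 without Hist1h2bc. The sums without the gene of highest mean TPM were −0.16 for H1, 0.041 for H2B and −0.62 for H4. H2A moved to −0.19 by TMM and −0.17 by size factors, and H2B to 0.16 in FPKM. H3 moved less than its counting interval in every setting.

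The other alternatives were chosen after seeing the data. Genes with a poly(A) signal (0.47) moved to 0.31 in FPKM, 0.32 in CPM and 0.34 without Hist1h4i, and turned to −0.042 without Hist1h1c and Hist1h4i, as H4 genes with the signal (0.56) did to −0.10 without Hist1h4i. Genes without the signal (−0.23) moved to −0.35 in FPKM, −0.11 by TMM, −0.085 by size factors and −0.43 without Hist1h2bc. A window of 35 bases gave the same groups. At this depth 6 genes had fewer than 10 reads, too few for a ratio to be read.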
